A study of Mus musculus with 12 samples.

Results

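Oligodendrocytes make the myelin that wraps axons of the brain, and the 29 genes described here follow their lineage, with 17 genes of myelinating oligodendrocytes and 12 of precursors and committed precursors. They were chosen by symbol, as known genes of these stages, from a table of 43629 genes. Counts were available for 28 of them, all of which passed the filter on low counts, so that 28 of the 19145 genes tested are members. Lhfpl3, a precursor gene, was not analysed here.

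The 12 libraries are of polyadenylated RNA from a hemibrain of mice killed at 3 months of age. The collagen domain groups, 3 females and 3 males, had been injected as newborns into the cerebral ventricles with a recombinant adeno-associated virus (rAAV, a vector for gene delivery) that encodes a collagen domain construct. The PBS groups, again 3 females and 3 males, had been injected with saline only. No group analysed here was given an rAAV without the construct, and strain, promoter and construct sequence are not given in the labels, so vector and construct cannot be told apart. The RNA came from frozen pulverised tissue that the labels' protocols name forebrain, and nothing says that each library is a separate animal, so p-values measure the spread between these libraries, which may be technical. In bulk tissue, fewer oligodendrocytes and less RNA per oligodendrocyte cannot be told apart.

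Libraries held 39272127 to 52323985 counted reads, and several go against their labels or stand apart. C1qtnf3, the gene of the protein that the series title names, had 2612 to 4966 reads in 4 libraries labelled collagen domain but 8 and 23 reads in the other two, and 12 to 28 reads in 4 libraries labelled PBS but 1071 and 2675 in the other two. By C1qtnf3, or by Xist and Ddx3y (RNAs of the silenced X and of the Y chromosome), 5 of 12 libraries contradict a label, which are collagen domain female 1, female 3 and male 3, PBS female 2 and PBS male 1. Of these 5, all but collagen domain female 3 contradict the sex label, and all but collagen domain male 3 contradict the treatment label. Hox genes, which mark hindbrain and spinal cord, summed to 8.52 to 25.8 CPM (counts scaled to the size of the library) in 6 libraries and to 0 to 0.278 CPM in the rest. PBS male 3 had 7.82 CPM of Cst7, a gene of activated microglia, against 0.0232 to 0.326 CPM in the other 11. All directions between treatments or sexes below are by label.

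Precursors divide under the growth factor receptor encoded by Pdgfra and carry the proteoglycan encoded by Cspg4. The transcription factors Olig2, Olig1 and Sox10 act through the whole lineage. Cells leaving the precursor state switch on Gpr17, Bcas1 and Enpp6, and Myrf then drives the genes of the myelin sheath, among them Mbp, whose protein holds the cytoplasmic faces of the sheath together. White matter tracts are densest in brainstem, spinal cord and the large commissures, and myelin transcripts are among the most abundant of the brain.

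Promoters of 4 members are shown for the contrast in levels between libraries with and without hindbrain genes. Gjb1, Ugt8a and Mobp were higher with hindbrain genes, with no overlap, while the 3 lowest levels of Opalin were in libraries with hindbrain genes. RefSeq sequences of build GRCm38.p6 are given, from 250 bases before to 50 after the start, and capitals mark every match to CTGGNAC (the motif of MYRF), CAGCTG (an E-box, the kind of site that OLIG2 binds) or ACAAAG (bound by SOX proteins), on either strand. No matches of different motifs overlapped. For Mobp the window was chr9:120149492-120149791, plus strand, for Gjb1, which has 4 annotated starts, chrX:101383482-101383781, plus strand, for Ugt8a chr3:125938603-125938902, minus strand, and for Opalin chr19:41077064-41077363, minus strand.
Mobp: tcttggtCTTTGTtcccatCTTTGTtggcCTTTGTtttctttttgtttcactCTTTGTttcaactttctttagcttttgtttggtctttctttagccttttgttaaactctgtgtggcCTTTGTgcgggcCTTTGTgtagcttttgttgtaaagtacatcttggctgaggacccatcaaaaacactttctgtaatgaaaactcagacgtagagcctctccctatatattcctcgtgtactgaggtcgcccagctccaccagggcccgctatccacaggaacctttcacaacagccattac
Gjb1: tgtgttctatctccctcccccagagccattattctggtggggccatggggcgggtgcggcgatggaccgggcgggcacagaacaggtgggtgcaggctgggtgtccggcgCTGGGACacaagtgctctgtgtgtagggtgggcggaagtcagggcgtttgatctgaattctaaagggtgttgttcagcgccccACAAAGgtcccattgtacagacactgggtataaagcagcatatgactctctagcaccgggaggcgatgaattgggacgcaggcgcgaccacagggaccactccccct
Ugt8a: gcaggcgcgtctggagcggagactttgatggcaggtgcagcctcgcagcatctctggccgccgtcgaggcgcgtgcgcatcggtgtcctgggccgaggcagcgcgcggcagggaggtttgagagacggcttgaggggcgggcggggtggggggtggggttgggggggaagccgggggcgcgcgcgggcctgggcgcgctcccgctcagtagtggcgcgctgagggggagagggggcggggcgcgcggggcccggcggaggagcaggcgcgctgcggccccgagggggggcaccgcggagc
Opalin: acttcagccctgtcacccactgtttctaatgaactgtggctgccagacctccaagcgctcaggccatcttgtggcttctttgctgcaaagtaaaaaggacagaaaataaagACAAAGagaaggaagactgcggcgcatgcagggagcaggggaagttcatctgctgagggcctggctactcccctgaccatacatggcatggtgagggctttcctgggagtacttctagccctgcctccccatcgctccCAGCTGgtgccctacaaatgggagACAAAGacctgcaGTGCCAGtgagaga

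The Mobp window held ACAAAG or its reverse complement 6 times, all before the start, and neither of the other motifs. The Gjb1 window held CTGGNAC (as CTGGGAC) and ACAAAG once each. It is shown because it alone of the 4 Gjb1 windows held both, where the others held ACAAAG once, CTGGNAC once, and none. The Ugt8a window, rich in G and C, held none of the 3, and the Opalin window held CTGGNAC and CAGCTG once each and ACAAAG 2 times. Windows were found for 20 of the 28 members, 26 windows in all. CTGGNAC was in 8 of the 26 (30.8%) and in 19.3% of all 32851 windows of the same length. ACAAAG was in 9 of the 26 (34.6%), against 18.7% of all windows, and CAGCTG in 2 (7.69%), against 16.3%. These windows are not independent, since some genes have several, and overlapping Mag windows held the same matches of CTGGNAC and ACAAAG. By gene, CTGGNAC was in 6 and ACAAAG in 7 of the 20 members with a window. A match is only a run of letters, and the members with a CTGGNAC match were Cnp, Gjb1, Mag, Mog, Opalin and Tnr.

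All 28 members were read in every library. Per kilobase of annotated exon, Mbp had the highest mean level (306 CPM per kilobase over 12 libraries), followed by Mobp (134), Enpp2 (94.0) and Cnp (84.4). Among precursor members Olig1 (40.1) and Bcas1 (34.2) were highest per kilobase and Cspg4 was lowest (0.738). Trf, the gene of the iron carrier transferrin, had a mean of 0.789 CPM per kilobase, below all myelinating members, although oligodendrocytes are a known source of transferrin. In GENCODE M21, 63.5% of the exonic bases of Trf are shared with Gm20425, an annotated gene on the same strand, which had 0 to 1 reads per library. The level of Trf is therefore uncertain. Nkx6-2 shares 12.9% of its exonic bases with Inpp5a on the opposite strand, which had 1916 to 4294 reads, and Bcas1 shares 12.6% with 2 antisense genes. The library kit does not mark strand, so reads within the shared bases cannot be told apart. Bcas1os1, the antisense gene that shares most with Bcas1 (11.7%), had 1 to 12 reads per library.

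The median spread of the members between libraries was close to that of all genes tested, which were not matched to them for level. The SD of log2 CPM over the 12 libraries had a median of 0.20 for the 17 myelinating members and 0.18 for the 11 precursor members, beside 0.19 over all 19145 genes tested. Enpp2, which encodes the lysophospholipase autotaxin, varied most (SD 0.38), and Mal, a proteolipid of vesicle traffic, least (SD 0.11) among myelinating members. Among precursor members Enpp6, a choline phosphodiesterase of newly formed oligodendrocytes, varied most (SD 0.26) and Neu4, a sialidase, least (SD 0.12).

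**Figure D1:**
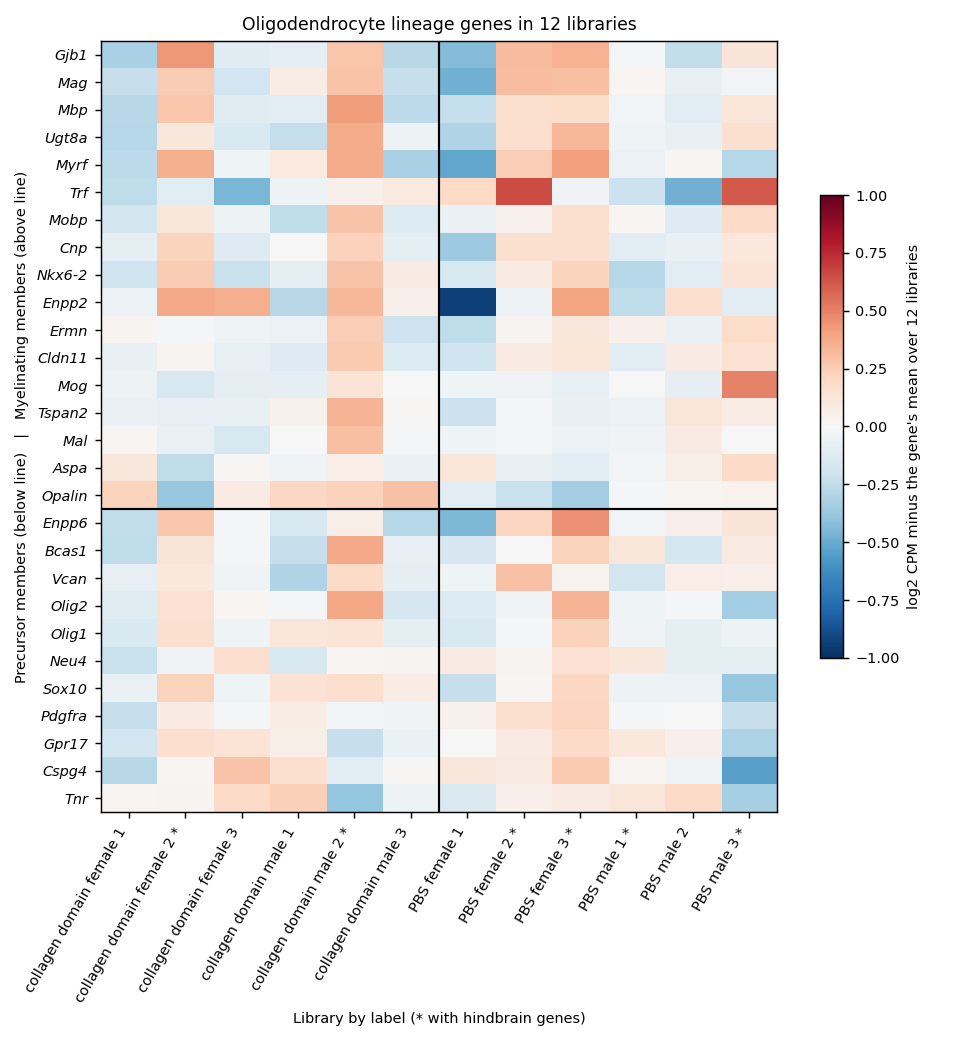
Centred log2 CPM of the 28 members (rows, myelinating above the line and precursor below, ordered within each by the difference between libraries with and without hindbrain genes) in the 12 libraries (columns, collagen domain left of the line and PBS right of it; asterisks mark the 6 libraries with hindbrain genes). Collagen domain male 2 is above the mean in all 17 myelinating rows, PBS female 1 is lowest in 9 of them, and PBS male 3 is lowest in 5 of the 11 precursor rows.

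No member of the lineage passed the test between the labelled treatments. In both sexes together edgeR called 0 of 28 members, beside 0 of 19145 genes (0%), and 1 member had an unadjusted p under 0.05, beside 354 genes (1.85%). With 4 libraries against their treatment label, C1qtnf3 itself thus did not pass, so 0 members called does not show equal levels. DESeq2 and limma-voom also called 0 members, each beside 0 of 19145 genes. Each had 1 member at an unadjusted p under 0.05, beside 338 genes for DESeq2 and 349 for limma-voom. Of the myelinating members 7 of 17 had a log2 fold change above 0, with a median of -0.02, and of the precursor members 5 of 11, also with a median of -0.02, beside 50.1% and a median of 0.00022 over all genes. No member had levels that did not overlap between the 6 libraries of each treatment, beside 0.0679% of all genes. The 95% intervals of the members' log2 fold changes had half-widths of 0.13 to 0.43, with a median of 0.21. Without the 5 libraries that contradict a label, edgeR called 0 members, beside 2 of 19145 genes. At an unadjusted p under 0.05 there were 0 members, beside 1091 genes. The medians were 0.07 for myelinating and 0.06 for precursor members.

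**Figure D2:**
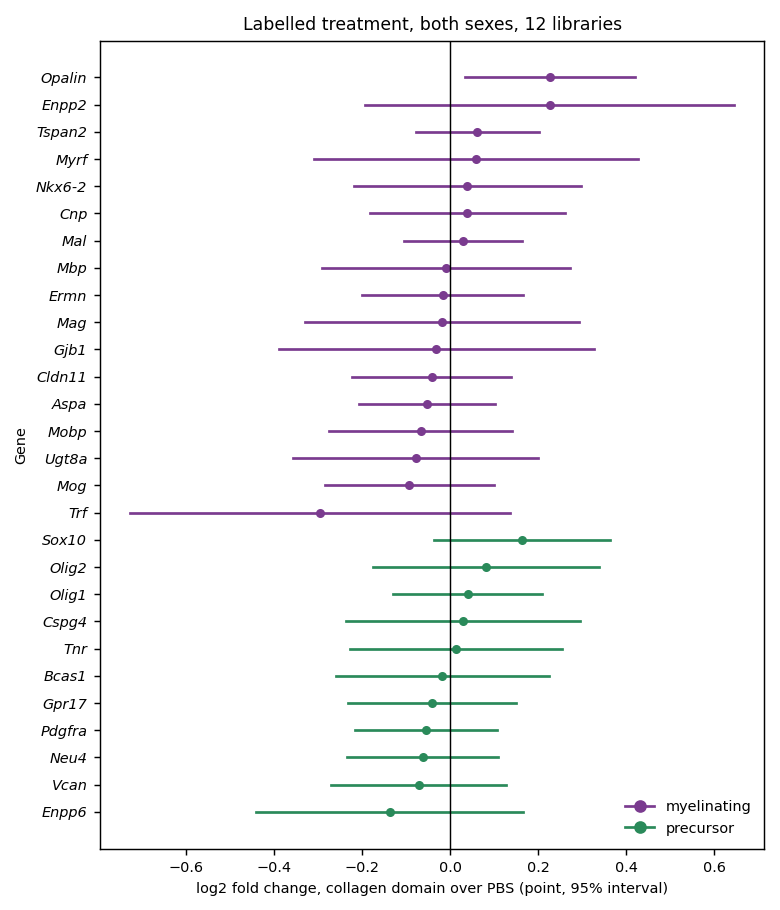
Log2 fold change of each member (rows, myelinating above, precursor below) between libraries labelled collagen domain and libraries labelled PBS, with its 95% interval, from the fit of 12 libraries. Opalin is the only member whose unadjusted interval leaves out 0, and no member passed after adjustment.

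Among the proteins of the sheath, Mbp ranged over 2120, 2360 and 3420 CPM (lowest, median and highest) in collagen domain libraries and over 2170, 2650 and 2890 CPM in PBS libraries. The log2 fold change was -0.01 (95% interval -0.29 to 0.27). Mog, a glycoprotein of the outermost lamella, ranged over 66.4, 70.7 and 81.6 CPM in collagen domain libraries and over 69.8, 72.1 and 105 CPM in PBS libraries. The 105 CPM belonged to PBS male 3, and the log2 fold change of -0.09 (SE 0.0885, edgeR adjusted p = 1) stood at 0.0026 without that library. Opalin, a transmembrane protein of the oligodendrocyte surface, had the smallest p of all members. It ranged over 13.3, 20.2 and 21.3 CPM in collagen domain libraries and over 13.6, 16.7 and 17.8 CPM in PBS libraries. All collagen domain libraries but female 2 lay above every PBS library. The log2 fold change was 0.23 (SE 0.089, edgeR adjusted p = 1) and stood at 0.06 (SE 0.117, edgeR adjusted p = 0.873) without the 5 libraries that contradict a label.

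Among enzymes and carriers of the mature cell, Enpp2 and Trf had the largest SE of the 28 members. Enpp2 ranged over 435, 604 and 687 CPM in collagen domain libraries and over 277, 498 and 691 CPM in PBS libraries, with a log2 fold change of 0.23 (SE 0.193, edgeR adjusted p = 1). PBS female 1 held the 277 CPM, and the value was 0.09 without it and 0.36 without PBS female 3, which held the 691 CPM. Choroid plexus epithelium also makes autotaxin, and its 6 markers summed to 365 to 962 CPM in collagen domain libraries and to 361 to 744 CPM in PBS libraries. Collagen domain male 1 and PBS female 1 were the lowest in choroid plexus markers (365 and 361 CPM) and also in Enpp2 (435 and 277 CPM). At the upper end the order differed, with PBS female 3 at 691 CPM of Enpp2 and 670 CPM of these markers. Collagen domain male 3 had 546 CPM of Enpp2 and 863 CPM of the markers. The part of choroid plexus in the Enpp2 values was not tested. Trf ranged over 1.84, 2.41 and 2.73 CPM in collagen domain libraries and over 1.81, 2.71 and 4.02 CPM in PBS libraries, with a log2 fold change of -0.30 (SE 0.199, edgeR adjusted p = 1). PBS female 2 and PBS male 3 lay above all other libraries for Trf, at 4.02 and 3.92 CPM, and the value was -0.17 without the one and -0.16 without the other. Aspa, which splits N-acetylaspartate, stayed within 29 to 37.6 CPM in collagen domain libraries and 32.3 to 39.5 CPM in PBS libraries, at a log2 fold change of -0.05 (SE 0.071). Mal stayed within 171 to 236 CPM in collagen domain libraries and 184 to 202 CPM in PBS libraries. Tspan2, a tetraspanin, had a log2 fold change of 0.06 (SE 0.0641, edgeR adjusted p = 1), with collagen domain male 2 at 160 CPM above the other 11 libraries, and stood at 0.0078 without that library.

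**Figure D3:**
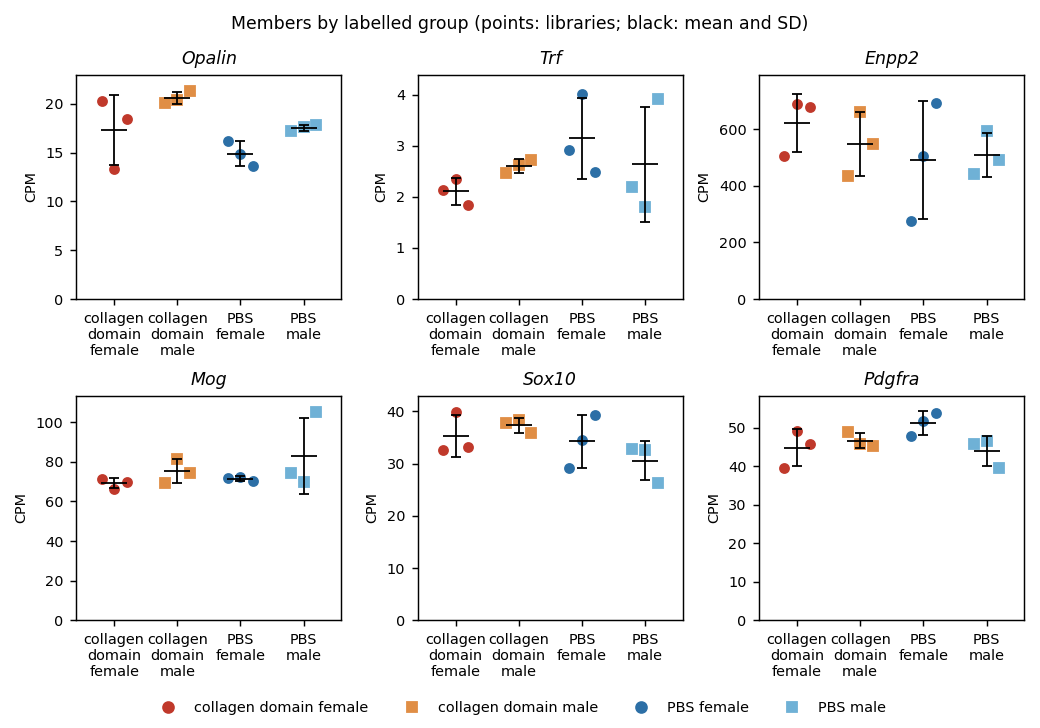
CPM of 6 members (panels) in the 4 labelled groups, each point a library, with mean and SD in black (n = 3 per group). With sexes pooled the treatments overlap in every panel, and the highest point for Mog is PBS male 3 (105 CPM) and the lowest for Enpp2 is PBS female 1 (277 CPM).

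None of the transcription factors of the lineage passed the test between treatments. Sox10, which with Olig2 maintains the lineage and with Myrf activates myelin genes, ranged over 32.7, 36.8 and 39.9 CPM in collagen domain libraries and over 26.2, 32.8 and 39.3 CPM in PBS libraries. Its log2 fold change was 0.16 (SE 0.0921, edgeR adjusted p = 1), from 0.10 without PBS male 3 to 0.23 without PBS female 3, and 0.31 (SE 0.134, edgeR adjusted p = 0.664) without the 5 libraries that contradict a label. Myrf ranged over 36.7, 47.0 and 59.3 CPM in collagen domain libraries and over 32.0, 45.3 and 61.1 CPM in PBS libraries, with a log2 fold change of 0.06 (SE 0.169, edgeR adjusted p = 1). Olig2 ranged over 17.7, 19.9 and 26.0 CPM in collagen domain libraries and over 15.6, 19.3 and 25.2 CPM in PBS libraries. Olig1 ranged over 77.9, 88.8 and 96.6 CPM in collagen domain libraries and over 77.6, 84.0 and 102 CPM in PBS libraries. The groups overlapped for all 4 factors.

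At the precursor stage, Pdgfra ranged over 39.7, 45.7 and 49.1 CPM in collagen domain libraries and over 39.6, 47.3 and 54.0 CPM in PBS libraries, with a log2 fold change of -0.05 (SE 0.0741, edgeR adjusted p = 1) that stood at 0.06 without the 5 libraries that contradict a label. Cspg4 ranged over 7.19, 8.78 and 10.6 CPM in collagen domain libraries and over 5.97, 9.05 and 10.5 CPM in PBS libraries, at a log2 fold change of 0.03 (SE 0.122). Enpp6 ranged over 6.34, 7.29 and 9.33 CPM in collagen domain libraries and over 5.64, 8.24 and 10.6 CPM in PBS libraries, with a log2 fold change of -0.14 (SE 0.14, edgeR adjusted p = 1). The value for Enpp6 was -0.24 without PBS female 1, -0.09 without collagen domain female 1 and -0.05 without PBS female 3. Both genes overlapped between the treatments. Vcan, the matrix proteoglycan versican, had a log2 fold change of -0.07 (SE 0.0914), and Neu4 one of -0.06 (SE 0.0792), both at adjusted p = 1. The other 5 precursor members, Gpr17, Tnr, Bcas1, Olig1 and Olig2, stood between -0.04 and 0.08, and the other 9 myelinating members, Mag, Mobp, Cnp, Cldn11, Ermn, Mal, Ugt8a, Nkx6-2 and Gjb1, between -0.08 and 0.04.

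Within the sexes as labelled, edgeR again called 0 members, beside 0% of genes in females and in males. In females 5 of 17 myelinating and 2 of 11 precursor members had a log2 fold change above 0 (47.6% of all genes), with medians of -0.05 and -0.07. In males 11 of 17 and 6 of 11 did (52.3% of all genes), with medians of 0.04 and 0.03. With 1 library left out, the myelinating median ran from -0.14 (without PBS female 1) to 0.0052 (without PBS female 3) in females, and from -0.05 (without collagen domain male 2) to 0.14 (without collagen domain male 3) in males. At an unadjusted p under 0.05 there were 0 members in females, beside 1.46% of genes, and 1 in males, beside 1.7%. That member was Sox10, at 37.7, 38.4 and 35.8 CPM in collagen domain males and 32.8, 32.7 and 26.2 CPM in PBS males, with a log2 fold change of 0.29 (SE 0.126, edgeR adjusted p = 1). Sox10 and Opalin were the 2 of 28 members that did not overlap between the males, both higher with the collagen domain, beside 4.95% of all genes in either direction. Collagen domain male 3 and PBS male 1 contradict their sex label, and PBS male 1 also its treatment label. Without PBS male 3, which held the 26.2 CPM, the value was 0.19.

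In females the smallest p were those of Trf and Pdgfra. Pdgfra stood at 39.7, 49.1 and 45.8 CPM in collagen domain females and 47.9, 51.9 and 54.0 CPM in PBS females, and the groups overlapped. Its log2 fold change was -0.19 (SE 0.0936, edgeR adjusted p = 1), and Trf stood at -0.57 (SE 0.269, edgeR adjusted p = 1). Pdgfra stood at -0.11 without collagen domain female 1, which contradicts its labels and held the 39.7 CPM, and Trf at -0.36 without PBS female 2. The difference of treatment between males and females was tested as an interaction and called 0 members, beside 0% of genes, with 0 members at an unadjusted p under 0.05, beside 1.37%. Of the 28 members 22 had an interaction above 0, beside 50.6% of all genes. Pdgfra had the smallest p there, at 0.27 (SE 0.133, edgeR adjusted p = 1), with Trf next at 0.56 (SE 0.38, edgeR adjusted p = 1). Without the 4 libraries that contradict their treatment label, the median interaction of myelinating members was -0.11, beside 0.07 with all 12. DESeq2 called 0 members in either sex and for the interaction, beside 0 of 19145 genes in females, 3 in males and 1 for the interaction. With limma-voom 0 members and 0 genes were called in each. At an unadjusted p under 0.05 DESeq2 had 1 member in females, beside 270 genes, and 1 in males, beside 286. There limma-voom had 0 members in females, beside 293 genes, and 1 in males, beside 318.

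Between libraries labelled male and female, edgeR called 0 members, beside 0% of genes, and 2 members had an unadjusted p under 0.05, beside 1.97% of genes. With 4 libraries against their sex label, Xist and Ddx3y thus did not pass either, so 0 members called does not show equal levels. Without the 5 libraries that contradict a label, 0 members were called, beside 7 of 19145 genes. Tspan2 stood at 130, 160, 127, 121, 137 and 133 CPM in the males and 121, 120, 120, 108, 124 and 120 CPM in the females, in each case the collagen domain libraries first. Of the 6 males, 5 lay above every female. Its log2 fold change, male over female, was 0.18 (SE 0.0641, edgeR adjusted p = 1). Opalin ranged over 17.2, 19.0 and 21.3 CPM in males and over 13.3, 15.5 and 20.3 CPM in females, with a log2 fold change of 0.24 (SE 0.089, edgeR adjusted p = 1). Without the 5 libraries that contradict a label, Tspan2 stood at 0.25 (SE 0.1) and Opalin at 0.39 (SE 0.118), both at adjusted p = 1. Precursor members had a median of -0.07 with 1 of 11 above 0, and myelinating members a median of 0.02 with 13 of 17 above 0, beside 49.4% of all genes above 0.

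The other genes of the lineage, from lists of known members, gave the same count of 0 passed for treatment in both sexes. Of 21 other mature oligodendrocyte genes 10 stood above 0 with a median of -0.02, of 10 other precursor genes 10 with a median of 0.06, and of 12 regulators 6 with a median of -0.01. Of 12 growth factors and receptors tested (13 listed) 10 stood above 0 with a median of 0.06, of 13 sterol synthesis genes 3 with a median of -0.06, and of 9 axonal partners of the sheath 5 with a median of 0.01. Apod, a lipid carrier of oligodendrocytes, averaged 188 ± 9.97 CPM in collagen domain libraries and 218 ± 36.9 CPM in PBS libraries (SD, n = 6 each), with a log2 fold change of -0.22 (SE 0.0962, edgeR adjusted p = 1). Insig1, which restrains sterol synthesis, averaged 67.3 ± 4.25 CPM in collagen domain libraries and 78.6 ± 12 CPM in PBS libraries (SD, n = 6 each), with a log2 fold change of -0.22 (SE 0.092, edgeR adjusted p = 1). Sox6, which holds precursors undifferentiated, stood at 0.11 (SE 0.0819), Zfp488, a cofactor of Olig2, at 0.21 (SE 0.129) and Bmp4, which opposes differentiation, at -0.21 (SE 0.141), all at adjusted p = 1.

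Several myelin genes were higher in the libraries that also held hindbrain genes than in those that did not. Libraries were divided by the mean log2 CPM of 15 Hox genes and 6 cerebellar genes against its mean over all 12. The 6 libraries above it were collagen domain female 2 and male 2, PBS female 2 and female 3, and PBS male 1 and male 3. All 15 Hox genes were read in each of these 6, and 8 to 15 of them had 0 reads in each of the other 6. PBS male 1 had 10 CPM of Hox genes with 15.5 CPM of cerebellar genes, where the other 5 had 306 to 731 CPM of cerebellar genes. This division comes from the libraries' own reads and is no group of the study, so values are given with no test.

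Of the 28 members, 5 did not overlap between the 6 libraries with and the 6 without hindbrain genes, 4 of 17 myelinating and 1 of 11 precursor members, all higher with hindbrain genes, beside 2.1% of all genes. Gjb1, a gap junction protein of the sheath, ranged over 15.0, 18.6 and 20.5 CPM in libraries with hindbrain genes and over 11.2, 12.6 and 14.2 CPM in those without. Mbp ranged over 2510, 2880 and 3420 CPM with them and over 2120, 2270 and 2380 CPM without. Ugt8a, the enzyme that makes the galactolipids of myelin, ranged over 77.3, 89.3 and 103 CPM with them and over 64.5, 69.4 and 77.0 CPM without. For these 3 genes the lowest library with hindbrain genes was PBS male 1. Mobp, a basic protein of compact myelin, ranged over 927, 1000 and 1110 CPM with them and over 764, 833 and 881 CPM without. Bcas1, a marker of oligodendrocytes starting to myelinate, ranged over 128, 139 and 166 CPM with them and over 107, 113 and 126 CPM without. None of the 28 was lower without overlap, beside 1.11% of all genes.

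**Figure D4:**
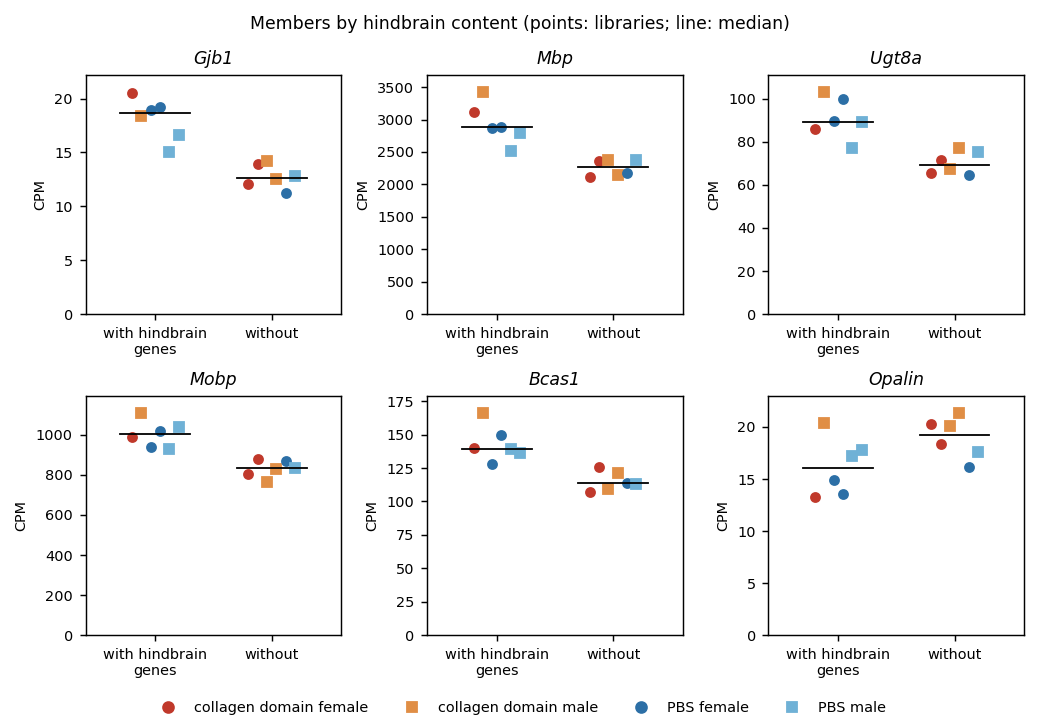
CPM of 6 members (panels) in the 6 libraries with and the 6 without hindbrain genes, each point a library coloured by its labelled group, lines at the median. Gjb1, Mbp, Ugt8a, Mobp and Bcas1 do not overlap between the columns, while the median of Opalin is 16.0 CPM with hindbrain genes and 19.2 CPM without.

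The mean log2 difference, with minus without hindbrain genes, was above 0 in 15 of 17 myelinating and 9 of 11 precursor members, beside 49.7% of all genes. Its median was 0.23 for myelinating and 0.06 for precursor members. Among myelinating members it ran from 0.50 for Gjb1, 0.38 for Mag and 0.37 for Mbp to 0.04 for Mal, -0.07 for Aspa and -0.24 for Opalin. Opalin ranged over 13.3, 16.0 and 20.4 CPM with hindbrain genes and over 16.2, 19.2 and 21.3 CPM without. Within the sheath genes the difference thus lay on either side of 0. Among precursor members the difference was 0.37 for Enpp6, 0.31 for Bcas1 and 0.0014 for Gpr17, the 3 genes of cells leaving the precursor state. It was 0.06 for Pdgfra, -0.08 for Cspg4 and -0.15 for Tnr, the matrix protein tenascin-R.

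Other gene lists differed in how they followed this division, and their part in the members' values was not tested. Of 9 axonal partners of the sheath, the 3 neurofilament genes Nefh, Nefm and Nefl did not overlap and were higher with hindbrain genes, beside 2.1% of all genes, and the other 6 overlapped. Nefh stood at 110 to 196 CPM in libraries with hindbrain genes and 67.2 to 88.8 CPM in those without. Of 21 other mature oligodendrocyte genes, Hapln2, Anln and Klk6 did not overlap, and all 21 had a mean difference above 0. Of 10 other precursor genes none lacked overlap and 3 had a mean difference above 0, with a median of -0.04, and of 12 regulators of the lineage none lacked overlap and 4 were above 0, with a median of -0.02. Of 12 growth factors and receptors tested, S1pr5 was higher without overlap and Igf1 lower, beside 2.1% and 1.11% of all genes. Igf1 stood at 12.5 to 15.2 CPM with hindbrain genes and 15.6 to 17.5 CPM without. Of 13 sterol synthesis genes none lacked overlap. Klk6, a protease that is abundant in spinal cord oligodendrocytes, stood at 9.15 to 21.8 CPM with hindbrain genes and 4.53 to 5.97 CPM without. Astrocyte markers summed to 1110 to 1520 CPM with and 988 to 1110 CPM without, and neuron markers to 5050 to 5690 CPM with and 5320 to 6040 CPM without. Divided by cerebellar genes alone, 5 libraries against 7, the members that did not overlap were Mbp, Mobp, Cnp, Ugt8a, Nkx6-2, Gjb1 and Enpp6, beside 5.06% of all genes for higher and 2.79% for lower, where no member lay. Without the 5 libraries that contradict a label, 9 members did not overlap between 4 libraries with and 3 without, all higher, beside 9.04% of all genes, and none was lower, beside 6.74%. Leaving out PBS male 3, a choice made after its values were seen, added no member to the 5 of the full division, beside 3.08% of all genes higher and 1.81% lower.

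The libraries with hindbrain genes were 2 of 6 labelled collagen domain and 4 of 6 labelled PBS. With the tissue mean as a covariate, edgeR called 0 members and 0 genes in any of the 5 comparisons. For treatment in both sexes the medians were then 0.07 for myelinating and -0.03 for precursor members. Within the 6 libraries with hindbrain genes the medians were 0.12 and -0.0075, and within the 6 without they were 0.03 and 0.02. In each, 0 members and 0 genes were called. Mbp stood at 0.24 (SE 0.0864, edgeR adjusted p = 0.643) within the libraries with hindbrain genes and at -0.02 (SE 0.0765, edgeR adjusted p = 0.986) within those without. Opalin stood at 0.06 (SE 0.105, edgeR adjusted p = 0.864) and at 0.25 (SE 0.0834, edgeR adjusted p = 0.972) in the same order. Sox10 stood at 0.25 (SE 0.121, edgeR adjusted p = 0.647) and at 0.17 (SE 0.0673, edgeR adjusted p = 0.972), the same sign in both.

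In PBS male 3 the medians of myelinating and precursor members lay on opposite sides of 0. Centred on each gene's mean, the median of its 17 myelinating members was 0.13 and that of its 11 precursor members -0.23, the lowest precursor median of the 12 libraries. It held the lowest level of Pdgfra (39.6 CPM), Cspg4 (5.97 CPM), Gpr17 (23.8 CPM), Olig2 (15.6 CPM) and Sox10 (26.2 CPM), and the highest of Mog and Aspa. The precursor members Bcas1 (0.09), Enpp6 (0.13) and Vcan (0.05) lay above their means there, and of the myelinating members Myrf (-0.28), Enpp2 (-0.10), Mag (-0.03) and Mal (-0.0015) lay below theirs. Collagen domain male 2, also with hindbrain genes, had medians of 0.28 and 0.06, and PBS female 3 had 0.16 and 0.21. In collagen domain male 1 the medians also lay on opposite sides of 0, at -0.06 for myelinating and 0.06 for precursor members. The summed CPM of myelinating over precursor members was 12 in PBS male 3 and 12.3 in collagen domain male 2, and 9.02 to 10.9 in the other 10 libraries. PBS male 3 was also the library with 7.82 CPM of Cst7, and the part of activated microglia in these values was not tested. It had the fewest counted reads (39272127) and the fewest genes with 1 read or more (24489) of the 12 libraries, and their part was not tested either. How often each library is lowest over all genes is not given.

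**Figure D5:**
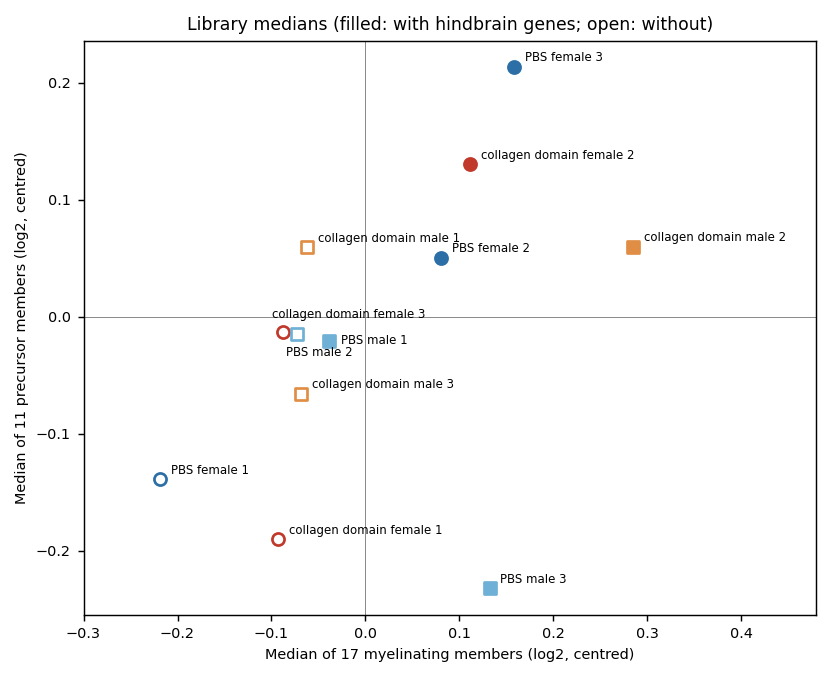
Median of the 17 myelinating members (horizontal, centred log2 CPM) and of the 11 precursor members (vertical) in each of the 12 libraries, coloured by labelled group, filled where hindbrain genes were read and open in the rest. Of the 6 filled libraries 5 lie right of 0, PBS male 1 lies at -0.04, and all open libraries lie left of 0, while PBS male 3 has the lowest precursor median at -0.23.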

How the data were processed

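Read counts per Ensembl gene ID, whole numbers deposited by the authors for 12 libraries in 1 table, were matched to samples by the library names in the labels. The kit was TruSeq version 2, read as 75 bp pairs on a NextSeq 500, per the labels' protocols. STAR, DESeq2 and build GRCm39 appear in the submitters' processing notes, without roles. The counting tool, its strand setting and the annotation are not given in the sources used here. Symbols, exon lengths and overlaps came from GENCODE M21 (GRCm38), which named 42462 of 43629 IDs, and promoters from RefSeq (GRCm38.p6).

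Tests used edgeR 4.0.16 in R 4.3.3: filterByExpr, which kept 19145 genes, TMM scaling, and a robust quasi-likelihood F-test, two-sided, its p-values adjusted over all genes (Benjamini-Hochberg, threshold 0.05). An additive model of sex and treatment gave treatment in both sexes and the sex difference, and a model of the 4 groups gave the rest. CPM uses TMM-scaled totals, and log2 CPM adds a prior count of 2. Alternatives included DESeq2 1.42.0 and limma 3.58.1. The code was tested on simulated data. Counts of libraries in 1 group differed beyond sampling noise (chi-square over degrees of freedom 11.1 to 94.6 in 12 pairs).

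Members, lists, tests and alternatives were chosen with earlier results of these data known. By rule, the members described are those of smallest p in each fit and of largest and smallest SD. Those described by tissue content, by PBS male 3 and by promoter, and Mbp, Klk6, Nefh and Cst7, were chosen after their values were seen.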

Additional observations from a re-analysis of the deposited data

Results flagged for a closer look

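Among 56 sets of 6 libraries (28 members in each labelled treatment), 5 held a library far from the rest by Dixon's test. Chance flags about 1 in 20 sets if they are independent and normally distributed. These sets share the same libraries, and no such count over all genes is given, so the number does not set the members apart. Mog stood at 105 CPM in PBS male 3, with the next PBS library at 74.5 CPM. Opalin stood at 13.3 CPM in collagen domain female 2, with the next collagen domain library at 18.4 CPM. Mal and Tspan2 stood at 236 and 160 CPM in collagen domain male 2, with the next at 193 and 130 CPM. Olig1 stood at 102 CPM in PBS female 3, with the next PBS library at 85.7 CPM. All 4 libraries concerned are among the 6 with hindbrain genes.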

How the results depend on the processing

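No member was called in any of the 5 comparisons under any alternative that was run: size factors by relative log expression, omission of the low-count filter, a minimum of 1 CPM in 6 libraries, DESeq2, limma-voom, a threshold of 0.1, a replicate block, a hindbrain covariate, each library left out in turn, leaving out the 4 or 5 libraries that contradict labels, and, for treatment in both sexes, no sex term and the 6 libraries with or without hindbrain genes. Other genes were called in some of these settings. DESeq2 called 3 for treatment in males, 1 for the interaction and 8 between the sexes. Without the 5 libraries edgeR called 2 for treatment in both sexes, 1 in females, 1 in males and 7 between the sexes. Without the 4 it called 2, 1, 1 and 1 in that order. It called 1 in males without collagen domain female 3 and 5 between the sexes without PBS male 3. The median interaction of myelinating members stood at -0.11 without the 4 libraries against their treatment label, and the cause was not tested. With fewer libraries, 9 members did not overlap by tissue content without the 5 libraries against a label, all higher. The share over all genes also rose there, to 9.04% higher and 6.74% lower. For treatment in both sexes, the sign of the log2 fold change turned for 11 of 28 members without the 5 libraries, for 11 within the libraries with hindbrain genes and for 8 within those without, none of them called. Among the members of smallest p, and over all alternatives, it turned for Enpp6 (0.0017 without the 5, 0.017 in libraries without hindbrain genes), Pdgfra (0.060 without the 5 and 0.055 without the 4), Vcan (0.095 in libraries with hindbrain genes) and Mog (0.011 in libraries without hindbrain genes, and -0.14 to 0.0026 with 1 library left out). Labels give the groups shared replicate numbers. Same-numbered libraries correlated at -0.38 to 0.57 in their deviations from group means, with 7 of 18 pairs over 0.1, and 6 libraries correlated best with one of their own number. Tissue content was not held constant in this comparison, so it cannot show whether the numbers pair libraries. With the replicate block 0 members were called, with medians of -0.025 for myelinating and -0.030 for precursor members. With 1 library left out, the medians for treatment in both sexes ranged from -0.07 to 0.03 for myelinating and from -0.06 to 0.03 for precursor members.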
